A study of Mus musculus with 7 samples.

Results

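The 30 genes described here mark the principal neurons of the hippocampal fields, and their reads were followed through 7 libraries of mouse hippocampal RNA from control, DMSO-treated and ONX-0914-treated animals. They were taken by name: 10 genes of dentate gyrus granule cells, 7 of CA1 pyramidal cells, 4 of CA3 and 4 of CA2. The other 5 are not tied to a single field and are called pan-hippocampal below. Each symbol matched 1 of the 55416 Ensembl identifiers in the counts, and all 30 passed the filter on low counts that left 13152 genes for testing. No cutoff on measured values was used to choose them, but earlier results of these libraries were known when they were chosen.

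The hippocampus is built from fields that are wired in series. Granule cells of the dentate gyrus receive the cortical input and send mossy fibres to CA3, CA3 pyramidal cells project to CA1, CA1 forms the main output, and the small CA2 field lies between CA3 and CA1. Cells of each field keep their own set of transcription factors, synaptic proteins and secreted proteins, so RNA of the whole tissue carries a reading of every field. Several genes of the set, among them Calb1 (calbindin) and Pcp4, are also used by neurons outside the hippocampus, including those of the striatum.

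Male, age-matched mice of the outbred CD1 stock were used. Control mice were untreated (3 libraries, replicates 1 to 3), and ONX-0914-treated mice received ONX-0914, an inhibitor of the immunoproteasome, at 10 mg/kg by intraperitoneal injection 2 times per week for 2 months (2 libraries, replicates 1 and 2). DMSO-treated mice were injected with the same volume of the vehicle on the same schedule (2 libraries, replicates 2 and 3). The study's methods give more mice per group than there are libraries and do not say whether a library is 1 animal, so p-values measure the spread between libraries. The values are read counts per gene, given here as CPM (a gene's reads relative to the library total, scaled for library composition by TMM), and library totals ran from 2842675 to 3877006 reads except for ONX-0914 replicate 2, with 13782270.

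The ONX-0914 libraries stood apart from the other 5 and from each other. In ONX-0914 replicate 1 all 12 striatal marker genes and all 10 marker genes of thalamus and midbrain lay above the other 5 libraries (27.9% of all tested genes). Summed over its list, the thalamic and midbrain level was 1221 CPM there against 95.3 to 126 CPM in the other 5 libraries, and the striatal level was 1425 CPM against 239 to 275 CPM. The 5 general genes of excitatory neurons summed to 3111 CPM in that library against 8986 to 10674 CPM in the control and DMSO libraries. ONX-0914 replicate 2 showed neither sign, with 97.3 CPM for thalamus and midbrain and 212 CPM for striatum, but held 837 CPM of the 5 blood genes against 96.4 CPM in replicate 1 and 30.02 to 46.4 CPM in the control and DMSO libraries, and 3.71% of its reads were mitochondrial against 0.818% to 1.59% elsewhere. The results below are therefore given with both ONX-0914 libraries and with each of them alone, and the part of other tissue in the results was not tested. RNA of whole tissue also cannot tell fewer cells of a type from less RNA per cell.

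Upstream sequences of 3 genes are shown because the results turn on them. Neurod6 and Neurod2, proneural transcription factors of pyramidal neurons that bind the E-box CANNTG, were among the lowest members of ONX-0914 replicate 1, and Prss35, a protease-like protein of CA3, had the smallest FDR among members with a lower level. Each run is the 250 bases before the RefSeq start site on mouse build GRCm38.p6, 5′ to 3′ on the gene's strand, in lower case with the CANNTG matches in capitals; the counts were made on GRCm39, so these positions locate the sequences only in the older build.
Neurod6, chr6:55681264-55681513, minus strand: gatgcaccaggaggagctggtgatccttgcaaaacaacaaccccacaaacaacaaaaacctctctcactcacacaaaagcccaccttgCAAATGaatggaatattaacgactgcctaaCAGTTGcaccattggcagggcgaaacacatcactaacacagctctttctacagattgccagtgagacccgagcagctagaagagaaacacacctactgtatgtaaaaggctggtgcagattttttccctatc
Neurod2, chr11:98329646-98329895, minus strand: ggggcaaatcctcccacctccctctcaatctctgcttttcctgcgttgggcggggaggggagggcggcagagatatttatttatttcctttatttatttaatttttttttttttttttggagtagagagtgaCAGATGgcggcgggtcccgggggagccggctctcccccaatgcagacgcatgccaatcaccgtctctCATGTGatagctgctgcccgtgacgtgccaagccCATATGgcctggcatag
Prss35, chr9:86743383-86743632, plus strand: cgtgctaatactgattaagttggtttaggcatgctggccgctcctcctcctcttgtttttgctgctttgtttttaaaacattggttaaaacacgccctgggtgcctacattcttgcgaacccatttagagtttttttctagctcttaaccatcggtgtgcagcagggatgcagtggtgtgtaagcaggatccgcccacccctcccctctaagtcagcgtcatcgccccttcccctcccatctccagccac
The Neurod6 window held 2 matches, the Neurod2 window held 3, and none stood in the Prss35 window. RefSeq windows were found for 23 of the 30 members, with 25 start sites in all. CANNTG, which reads the same on both strands, occurred in 11 of the 25 windows (44%) and in 66.2% of 32851 mouse windows of the same length. Of the forms within it, CAGATG on either strand occurred in 4 of the 25 windows (16%) against 14.4% of all windows, and CAGCTG occurred in none against 13%. These are matches of letters and not measured binding.

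In control hippocampus every member was detected in all 3 libraries, and the lowest single count was 5. Levels between genes were compared per kilobase of exon, since long transcripts collect more reads. The length counted each base of any annotated exon of a gene once. Zbtb20 had 30730 such bases, so its 242 CPM in control, above the 225 CPM of Neurod2, fell below Neurod2 per kilobase. Of the pan-hippocampal genes 3 led: Dkk3, which encodes a secreted protein of the Dickkopf family, stood at 246 ± 18.2 CPM per kb (SD, n = 3), Neurod6 at 168 ± 7.37 and Neurod2 at 71.8 ± 9.98. The next were 4 CA1 genes, Pou3f1 at 41.0 ± 4.41 CPM per kb and Wfs1, Fibcd1 and Mpped1 between 27.4 and 30.9. The other pan-hippocampal genes, Bcl11b and Zbtb20, stood at 21.9 and 7.87 CPM per kb, and the other 3 CA1 genes at 7.40 (Spink8) or less. Neighbours in this order from Wfs1 to Bok (24.9 ± 0.730 CPM per kb) lay within about 1 SD of each other and were not separated. The lowest members were Coch at 1.18 ± 0.552, Tdo2 at 0.872 ± 0.151 and Map3k15 at 0.473 ± 0.199 CPM per kb. Across the 3 control libraries the coefficient of variation of a member had a median of 12.7%, from 2.10% to 46.8%, beside a median of 12.2% over all tested genes.

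**Figure D1:**
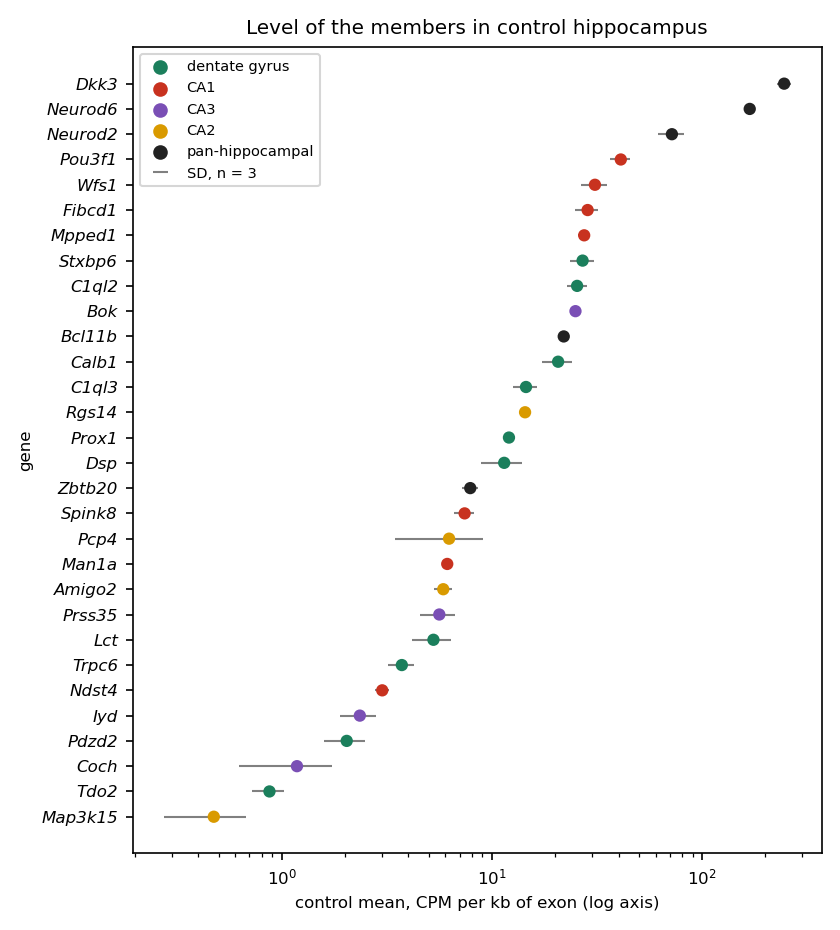
Level of each of the 30 genes in control hippocampus, as CPM per kilobase of exon on a log axis; points are the mean of 3 control libraries, bars the SD, and colours the field. Dkk3 and Neurod6 lie far above the rest at 246 and 168 CPM per kb, and Map3k15, Tdo2 and Coch lie lowest, at 0.473 to 1.18.

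To ask whether ONX-0914 treatment changed field identity genes, the groups were compared with edgeR's quasi-likelihood test over all 13152 genes, with Benjamini–Hochberg adjusted p-values (FDR) and a threshold of 0.05. No member passed in ONX-0914 against control, where 0.114% of all genes did. At an FDR under 0.1 there were 2 members, Prss35 (lower) and Pcp4 (higher), against 1.48% of all genes, and 14 of 30 had an unadjusted p under 0.05 against 18.6% of all genes. The fitted Log2FC was negative for 22 members and positive for 8, with a median of -0.62 beside 0.05 over all tested genes. By rank alone, and without a test, 14 members had both ONX-0914 levels under all 3 control levels (16.3% of all genes) and 2 were above them (16.9% of all genes). Set against all 5 other libraries, 12 members were below in both (11.3% of all genes) and the same 2 were above, Coch and Pcp4 (11.4% of all genes).

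The call depended on which ONX-0914 library was used. With ONX-0914 replicate 2 left out, so that replicate 1 stood alone and was assumed to vary like the other groups, 24 members passed the FDR threshold against 19% of all genes, and 22 of them were lower, which 9.5% of all genes were. With replicate 1 left out, 19 passed against 51.2% of all genes, 12 of them lower (26.4% of all genes). By the rank of a member in single libraries, ONX-0914 replicate 1 lay below the other 5 libraries for 24 members (24.9% of all genes) and above them for 2 (27.9%). ONX-0914 replicate 2 lay below them for 13 (33.6% of all genes) and above them for 9 (34.7%). For 15 members the level in replicate 1 was more than 3-fold under the control mean, and in replicate 2 this held for 1, Prss35. Replicate 2 was above replicate 1 for 27 of the 30 genes. The shares of all genes under these last rules were not counted. The median log2 CPM difference from the control mean was -1.58 over the members in replicate 1 and -0.15 in replicate 2. Over all tested genes it was 0.04 and 0.02. DESeq2 called 8 members with both libraries present (2.95% of all genes), and edgeR without the filter on low counts called 10 (2.15% of all genes).

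**Figure D2:**
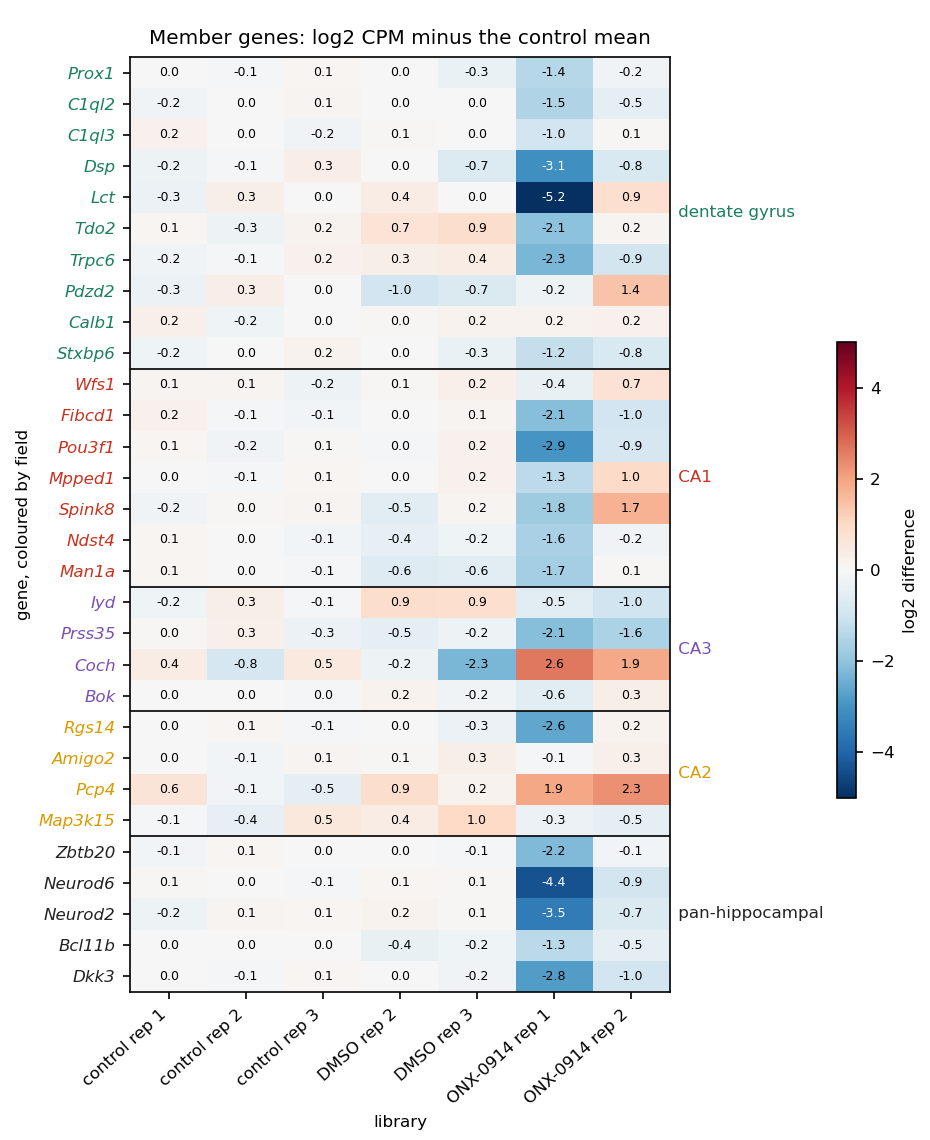
Log2 CPM minus the control mean (prior count 2) of each of the 30 genes in each of the 7 libraries, with genes grouped by field and colours running from lower (blue) to higher (red). The column of ONX-0914 replicate 1 is blue for most genes and reaches -5.2 at Lct, while replicate 2 is blue in the pan-hippocampal block and mixed elsewhere, and Coch and Pcp4 are red in both.

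Of the 5 pan-hippocampal genes, 4 had their 2 lowest levels in the ONX-0914 libraries (11.3% of all genes), and this was the field with the lowest median Log2FC (-1.51). None passed the FDR threshold with both libraries (0.114% of all genes), and 4 had an unadjusted p under 0.05 (18.6% of all genes). Neurod6, a basic helix-loop-helix factor of differentiated pyramidal neurons, had 377, 363 and 346 CPM in control replicates 1 to 3, 389.6 and 381 in DMSO replicates 2 and 3, 17.4 in ONX-0914 replicate 1 and 192 in replicate 2. Both DMSO libraries lay just above the control libraries and both ONX-0914 libraries below them; the Log2FC against control was -1.77 ± 0.75 (SE; FDR = 0.257), -0.92 without replicate 1 and -4.38 without replicate 2. The mean control level was 20.8 times that of ONX-0914 replicate 1 and 1.88 times that of replicate 2, and its log2 difference in replicate 1 was the 4th lowest of 13152 genes. Neurod2, its relative with a role in synapse maturation, had 189, 245 and 243 CPM in control, 250.3 and 233 in DMSO, 19.4 and 136 in ONX-0914 replicates 1 and 2. Again both ONX-0914 libraries were under the other 5, with a Log2FC of -1.51 ± 0.63 (FDR = 0.250), -0.74 without replicate 1 and -3.55 without replicate 2. Each was also lower against DMSO without passing the threshold, with a Log2FC of -1.86 ± 0.79 for Neurod6 and -1.61 ± 0.67 for Neurod2 (FDR = 0.332 and 0.326).

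Dkk3, the most abundant member per kilobase, measured 828, 763 and 885 CPM in control, 809.7 and 732 in DMSO, 117 in ONX-0914 replicate 1 and 424 in replicate 2. The ONX-0914 levels did not reach the range of the others (Log2FC against control -1.60 ± 0.46, FDR = 0.154, -0.97 without replicate 1 and -2.82 without replicate 2), and against DMSO the Log2FC was -1.50 ± 0.49 (FDR = 0.246). Bcl11b (Ctip2), a zinc finger factor of granule and CA1 neurons, had 177, 175 and 182 CPM in control, 137 and 151 in DMSO and 70.5 and 127 in ONX-0914. Here the DMSO libraries also lay below all control libraries, and the ONX-0914 libraries lay below both groups, with a Log2FC of -0.84 ± 0.25 against control (FDR = 0.156; -0.50 without replicate 1 and -1.34 without replicate 2) and -0.54 ± 0.26 against DMSO (FDR = 0.372). Zbtb20, a zinc finger factor that specifies hippocampal pyramidal identity, was the exception: 220.0, 261 and 245 CPM in control, 237 and 229 in DMSO, 51.8 in ONX-0914 replicate 1 and 222 in replicate 2. Replicate 2 lay within the control range and replicate 1 far below it, so the Log2FC of -0.81 ± 0.48 (FDR = 0.389) rested on replicate 1, and it was -0.14 without that library and -2.23 without replicate 2. Summed over the 5 genes, ONX-0914 replicate 1 gave 276 CPM, replicate 2 gave 1102 CPM and the other libraries gave 1725 to 1900 CPM, or 0.151 and 0.601 of the control mean. In replicate 1 the excitatory neuron genes stood at 0.308 of their control mean and in replicate 2 at 0.848.

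The granule cell genes of the dentate gyrus were mixed. The Log2FC against control was negative for 8 of 10 and positive for 2, with a median of -0.50 beside 0.05 over all genes. None passed the FDR threshold (0.114% of all genes) and 4 had an unadjusted p under 0.05 (18.6% of all genes). Prox1, the homeobox factor that granule cells need to keep their identity, had 101, 95.4 and 107 CPM in control, 101 and 80.7 in DMSO, 37.0 in ONX-0914 replicate 1 and 89.1 in replicate 2. The ONX-0914 libraries were below all control libraries, but replicate 2 was above DMSO replicate 3, and the Log2FC was -0.66 ± 0.33 (FDR = 0.314), -0.19 without replicate 1 and -1.45 without replicate 2. C1ql2, a secreted C1q-like protein of mossy fibre synapses, measured 44.9, 51.5 and 55.9 CPM in control, 51.5 and 50.0 in DMSO, 17.4 and 35.9 in ONX-0914. Both ONX-0914 libraries lay below the other 5 (Log2FC -0.90 ± 0.29, FDR = 0.178, -0.52 without replicate 1 and -1.56 without replicate 2). Dsp (desmoplakin, a protein of desmosomes) had 92.0, 101 and 138 CPM in control, 110.0 and 66.8 in DMSO, 12.6 in ONX-0914 replicate 1 and 64.0 in replicate 2. Replicate 2 lay just under DMSO replicate 3, replicate 1 lay 8.76-fold below the control mean, and the Log2FC was -1.49 ± 0.57 (FDR = 0.225), -0.80 without replicate 1 and -3.14 without replicate 2.

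Trpc6, a cation channel of granule cells, stood at 16.8, 18.0 and 21.8 CPM in control, 23.3 and 24.3 in DMSO and 3.52 and 9.78 in ONX-0914. DMSO lay above control and ONX-0914 below it in every library, with a Log2FC of -1.39 ± 0.37 against control (FDR = 0.140), -0.96 without replicate 1 and -2.42 without replicate 2, and -1.72 ± 0.40 against DMSO (FDR = 0.159). Stxbp6 (amisyn, a SNARE-binding protein) had 124, 144 and 161 CPM in control, 139 and 112 in DMSO, 61.2 in ONX-0914 replicate 1 and 83.6 in replicate 2, with both ONX-0914 levels under the other 5. Of the granule cell genes it had the lowest FDR, at 0.105 for a Log2FC of -0.98 ± 0.21, which was -0.79 without replicate 1 and -1.23 without replicate 2. The other 5 granule cell genes showed no common pattern. Lct (lactase) had 2 reads in replicate 1, 0.503 CPM, against 60.3 CPM in replicate 2 and 27.1 to 42.7 CPM in the 5 others. Tdo2, an enzyme of tryptophan breakdown, likewise had 2 reads in replicate 1 (0.503 CPM against 2.73 to 6.43 in the others, replicate 2 included). Pdzd2, a PDZ domain protein, was at 98.7 CPM in replicate 2 and 18.8 to 46.1 CPM in all other libraries. Calb1, the calcium buffer calbindin, lay between 85.3 and 117 CPM in all 7 libraries, and C1ql3, the paralog of C1ql2, was 18.6 CPM in replicate 1 and 32.5 to 42.1 CPM elsewhere. Without replicate 2 the Log2FC of the granule cell genes ran from -5.98 (Lct) to 0.15 (Calb1). Without replicate 1 it ran from -0.96 (Trpc6) to 1.37 (Pdzd2).

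CA1 genes parted between the ONX-0914 libraries. All 7 lay below the other 5 libraries in replicate 1 (24.9% of all genes) and 3 above them in replicate 2 (34.7%). Wfs1 (wolframin, a protein of the endoplasmic reticulum and a label of CA1) had 126, 127 and 98.0 CPM in control, 120.5 and 138 in DMSO, 90.4 in ONX-0914 replicate 1 and 191 in replicate 2, so that the ONX-0914 libraries enclosed the others. Its Log2FC was 0.27 ± 0.30 (FDR = 0.637), and turned from 0.70 without replicate 1 to -0.37 without replicate 2. Fibcd1, a membrane receptor for acetylated sugars, had 154, 130.1 and 122 CPM in control, 131 and 147 in DMSO and 30.2 and 68.7 in ONX-0914. The ONX-0914 libraries lay well below the other 5 (Log2FC -1.43 ± 0.32, FDR = 0.108, -0.98 without replicate 1 and -2.16 without replicate 2), and the Log2FC against DMSO was -1.47 ± 0.34 (FDR = 0.161). Pou3f1, a POU-domain transcription factor, had 170.4, 139 and 164 CPM in control, 153 and 182 in DMSO, 20.1 in ONX-0914 replicate 1 and 87.0 in replicate 2. It too was lower in both than in any other library, with a Log2FC of -1.53 ± 0.50 (FDR = 0.178), -0.87 without replicate 1 and -2.97 without replicate 2. The other 4 did not share this pattern. Mpped1, a metallophosphoesterase, was 47.3 CPM in replicate 1 and 231 CPM in replicate 2 against 110 to 137 CPM elsewhere. Spink8, a protease inhibitor, was 1.51 and 21.01 CPM against 4.02 to 6.78 elsewhere. Ndst4 (heparan sulfate modification) and Man1a (a Golgi mannosidase) were 11.1 and 17.9 CPM in replicate 1, and 31.1 and 62.0 CPM in replicate 2, within the range of the other 5 libraries. With both libraries present 2 of the 7 had an unadjusted p under 0.05, against 18.6% of all genes. Without replicate 2 the Log2FC of the CA1 genes ran from -2.97 (Pou3f1) to -0.37 (Wfs1). Without replicate 1 it ran from -0.98 (Fibcd1) to 1.76 (Spink8).

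The lowest and the highest Log2FC of the set against control belonged to CA3 genes, Prss35 and Coch. Prss35 had 19.6, 22.9 and 15.4 CPM in control, 13.7 and 16.1 in DMSO, 4.03 in ONX-0914 replicate 1 and 6.15 in replicate 2, below all 5 others in both. The Log2FC was -1.86 ± 0.30 against control (FDR = 0.0618) and -1.48 ± 0.32 against DMSO (FDR = 0.143), and against control it was -1.66 without replicate 1 and -2.25 without replicate 2, so each ONX-0914 library gave the lower level alone. Iyd, an iodotyrosine deiodinase that labels CA3, was scarce, with 3.21, 4.64 and 3.58 CPM in control, 7.24 and 7.14 in DMSO, 2.52 in ONX-0914 replicate 1 (10 reads) and 1.72 in replicate 2 (26 reads). DMSO libraries lay above control and ONX-0914 libraries below it, with a Log2FC of -0.95 ± 0.39 against control (FDR = 0.248; -1.17 without replicate 1 and -0.61 without replicate 2) and -1.85 ± 0.40 against DMSO (FDR = 0.141). Coch, a secreted protein known from the inner ear, went the other way: 4.28, 1.64 and 4.68 CPM in control, 2.68 and 0.357 in DMSO, 22.1 in ONX-0914 replicate 1 and 13.3 in replicate 2. Its ONX-0914 levels lay above all others (Log2FC 2.30 ± 0.51, FDR = 0.105, 1.92 without replicate 1 and 2.66 without replicate 2; against DMSO 3.37 ± 0.66, FDR = 0.121), with a single read in DMSO replicate 3. In replicate 1, the log2 difference of Coch ranked 56th from the top of 13152 genes. Bok, a BCL2-family protein, was 30.5 CPM in replicate 1 and 55.6 CPM in replicate 2 against 40.3 to 51.2 CPM in the others. Of 6 further genes known from CA3, 5 had a negative Log2FC and none passed the threshold.

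CA2 genes showed no common direction. Rgs14, a signalling regulator that limits plasticity in CA2, had 59.5, 64.3 and 58.7 CPM in control, 59.3 and 48.9 in DMSO, 9.82 in ONX-0914 replicate 1 and 68.9 in replicate 2. Replicate 2 was the highest of the 7 libraries and replicate 1 the lowest, and the Log2FC of -0.58 ± 0.59 (FDR = 0.613) turned to 0.17 without replicate 1 and was -2.63 without replicate 2. Amigo2, an adhesion molecule of CA2 and CA3 cells, kept within 16.6 to 22.8 CPM in all 7 libraries: 18.5, 16.6 and 20.4 in control, 19.3 and 22.8 in DMSO, 17.1 and 22.1 in ONX-0914. The groups overlapped, with a Log2FC of 0.096 ± 0.22 (FDR = 0.832) that was 0.24 without replicate 1 and -0.12 without replicate 2. Pcp4, a small calmodulin-binding protein strong in CA2 and in the striatum, had 9.63, 5.45 and 4.13 CPM in control, 11.5 and 6.78 in DMSO, 24.4 in ONX-0914 replicate 1 and 31.3 in replicate 2. Both ONX-0914 libraries lay above the other 5, with a Log2FC of 2.16 ± 0.36 against control (FDR = 0.0718; 2.33 without replicate 1 and 1.98 without replicate 2) and 1.59 ± 0.40 against DMSO (FDR = 0.176). The striatal markers stood at 5.38 times their control mean in replicate 1 and at 0.802 of it in replicate 2, so the higher Pcp4 level of replicate 2 came without a higher summed striatal level. Map3k15, a kinase, was low in every library, at 1.32 to 4.28 CPM.

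**Figure D3:**
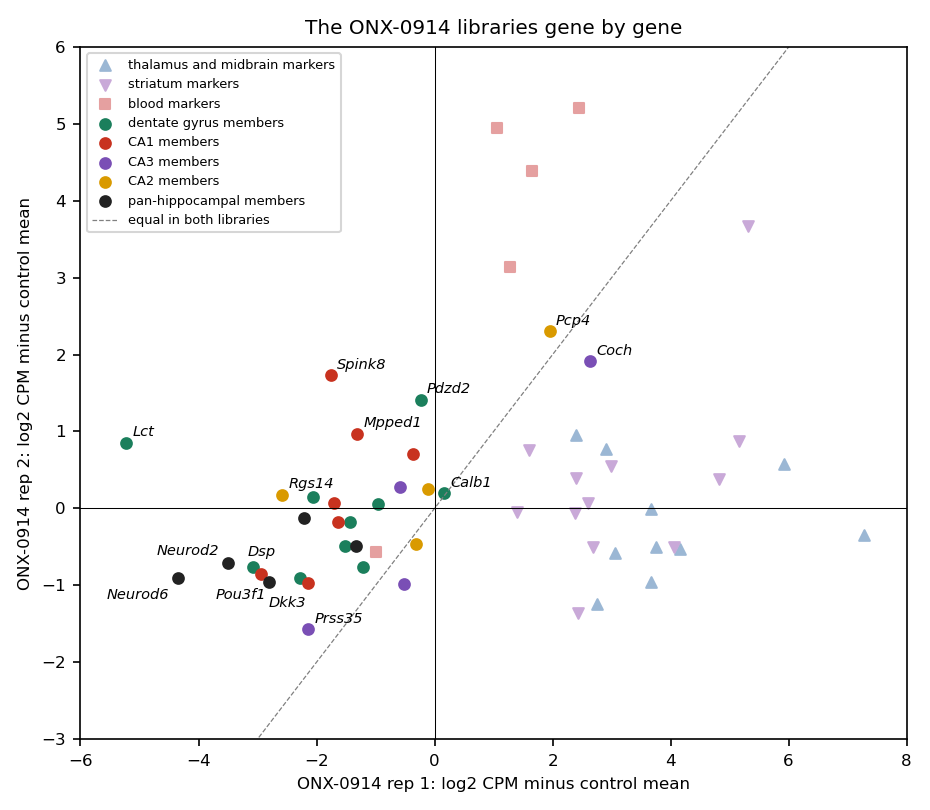
Log2 CPM minus the control mean in ONX-0914 replicate 1 (horizontal) against ONX-0914 replicate 2 (vertical) for the 30 genes and for marker genes of thalamus and midbrain, striatum and blood; the dashed line marks equal values. Members lie mostly in the left part, thalamic and striatal markers on the right and most blood markers at the top, and Prss35 is low and Pcp4 and Coch are high in both libraries.

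Fields were then compared with each other in every library, by the median over a field's genes of the log2 difference from the control mean. In the 5 libraries without ONX-0914 these medians lay between -0.21 and 0.23. In ONX-0914 replicate 1 the medians were -2.81 for pan-hippocampal genes, -1.70 for CA1, -1.48 for dentate gyrus, -0.55 for CA3 and -0.21 for CA2, while the median of all tested genes was 0.04. Replicate 2 gave -0.72 for pan-hippocampal genes, -0.35 for CA3, -0.06 for dentate gyrus, 0.07 for CA1 and 0.22 for CA2, with 0.02 over all genes. The order of CA1 and CA3 thus differed between the libraries, and the pan-hippocampal median was below the other 5 libraries in both. The CA3 median was also below them in both, but the mean of the same 4 genes was not (-0.15 and -0.091, against -0.46 in DMSO replicate 3). Relative to the dentate gyrus of the same library, which removes any scaling of the library, the pan-hippocampal median was -1.33 in replicate 1 and -0.65 in replicate 2 against -0.08 to 0.15 in the other 5. CA1 minus dentate gyrus was -0.22 and 0.13 (range of the others -0.17 to 0.27), which is inside that range in replicate 2 and just below it in replicate 1. With the genes shared between fields left out, CA1 minus dentate gyrus was 0.032 and 1.05 (others -0.095 to 0.38). The value of replicate 2 then lay above the other 5 libraries, so its place depended on the shared genes. CA2 minus dentate gyrus was 1.27 and 0.28 (others -0.10 to 0.25), and CA3 minus dentate gyrus was 0.93 and -0.29 (others -0.20 to 0.20). The CA2 and CA3 medians rest on 4 genes each, with Pcp4 at 1.95 and Rgs14 at -2.58 in the same replicate 1, and with the genes shared between fields left out the medians of replicates 1 and 2 were -1.45 and -0.14 for CA2, and -0.52 and 0.28 for CA3, which in replicate 2 is above the other 5 libraries. Genes of a field are not replicates, and no test was made on these medians.

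**Figure D4:**
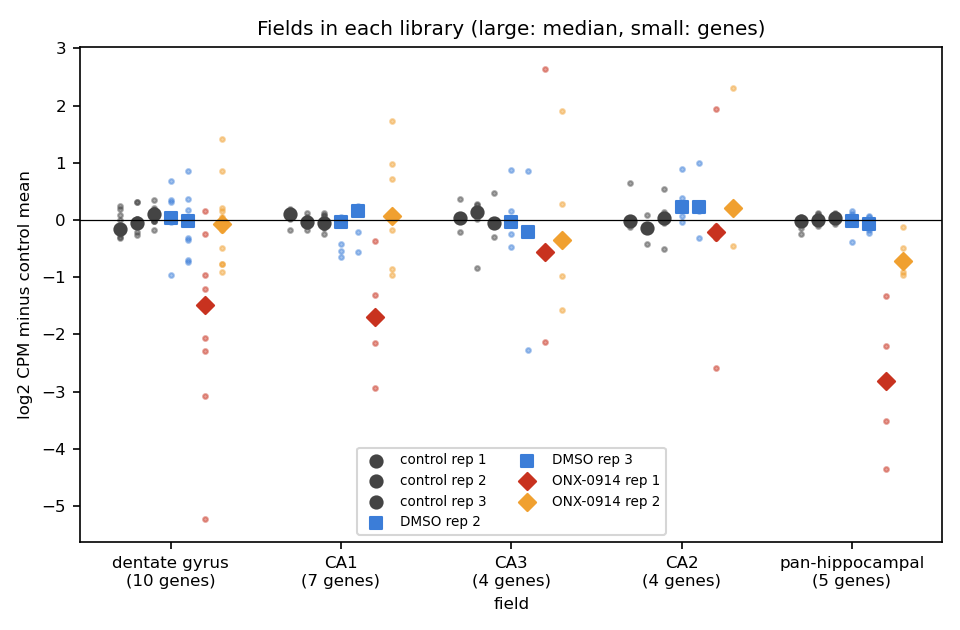
Log2 CPM minus the control mean for the 5 fields in the 7 libraries; small points are genes and large symbols the median of the field's genes. Control and DMSO medians sit near 0, ONX-0914 replicate 1 reaches -2.81 in the pan-hippocampal genes, and ONX-0914 replicate 2 is at -0.72 there and near 0 in dentate gyrus and CA1.

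Genes known from the same fields that are outside the 30 served as a further reading. Of 29 such genes in 6 lists none passed the FDR threshold in ONX-0914 against control, against 0.114% of all genes. In replicate 1, 6 of 6 other dentate gyrus genes, 3 of 4 CA1 genes, 5 of 6 CA3 genes, 2 of 4 CA2 genes and 5 of 5 excitatory neuron genes lay below the other 5 libraries (24.9% of all genes). In replicate 2 the same counts were 1, 1, 2, 2 and 3 (33.6% of all genes). There 4 of the 6 dentate gyrus genes, 3 of the 4 CA1 genes and 1 excitatory neuron gene lay above the other 5 libraries (34.7% of all genes). The fitted median Log2FC was -0.18 for the other dentate gyrus genes, 0.15 for CA1, -0.55 for CA3, -0.50 for CA2 and -0.66 for excitatory neurons. Gpr161, a receptor of CA1 cells, had the lowest FDR of these lists (0.0792) at 23.7 and 50.0 CPM in ONX-0914 against 90.7 to 124 CPM in the others, and Slc17a7, the vesicular glutamate transporter of excitatory neurons, had 493 and 1520 CPM against 1563 to 1747 CPM. Of 4 genes of the ventral hippocampus, 3 lay above the other 5 libraries in replicate 1 (27.9% of all genes) and 1, Grp, lay below them (24.9%). In replicate 2, 2 of the 4 lay above the other 5 libraries (34.7% of all genes) and 0 below them (33.6%).

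**Figure D5:**
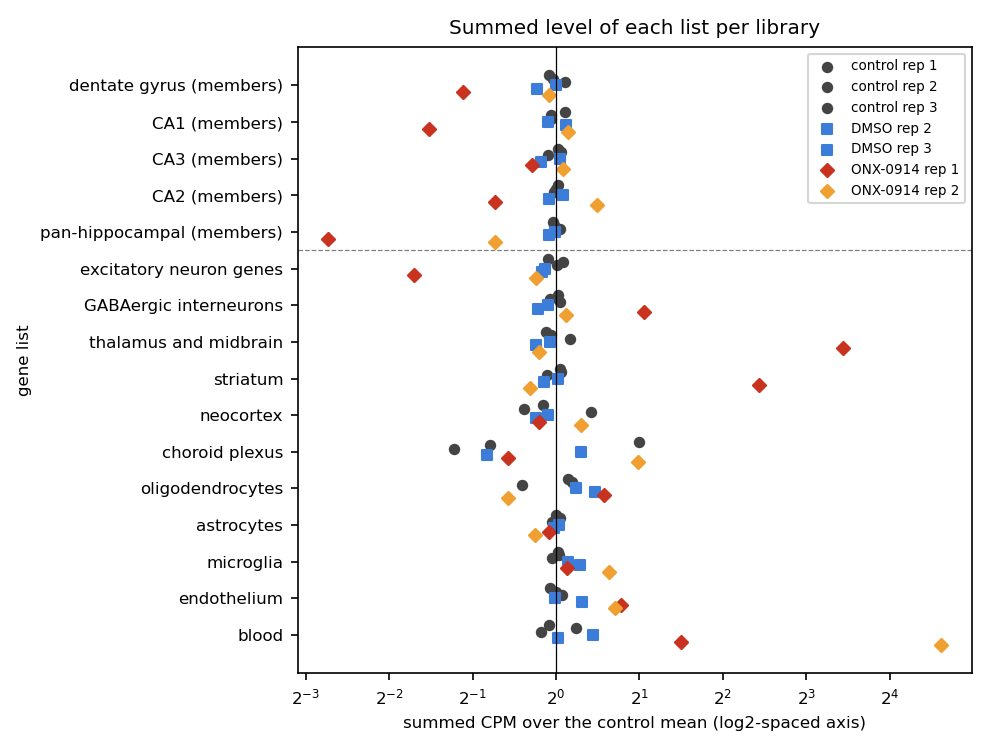
Summed CPM of each gene list in each library divided by its control mean, on a log2-spaced axis, for the 5 fields (above the dashed line) and for lists of other cell types and regions. In ONX-0914 replicate 1 the pan-hippocampal sum is 0.151 and the thalamic sum 10.8 times the control mean, and in ONX-0914 replicate 2 the blood sum is 24.6 times it.

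Markers of other cells moved with the ONX-0914 libraries as follows, and their part in the member results was not tested. GABAergic interneuron genes summed to 2.08 times the control mean in replicate 1 and 1.09 in replicate 2, oligodendrocyte genes to 1.49 and 0.670, astrocyte genes to 0.940 and 0.841, microglial genes to 1.10 and 1.56 and endothelial genes to 1.72 and 1.63. Neocortical genes gave 0.866 and 1.23 and choroid plexus genes 0.672 and 1.98, where the control libraries alone ran from 0.428 to 2.00. Within the interneuron list, 4 of 8 genes lay above the other 5 libraries and 2 below them in each ONX-0914 library. Over all genes 27.9% lay above and 24.9% below in replicate 1, and 34.7% and 33.6% in replicate 2. Pvalb stood at 356 CPM in replicate 1 and 53.8 in replicate 2 (112 to 146 elsewhere), and Sst at 22.7 and 111 CPM (25.1 to 31.9 elsewhere). No gene of the striatal, thalamic or interneuron lists was at 0 in replicate 1, and 1 of the 5 blood genes was.

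Between DMSO and control libraries the set differed little on balance. In DMSO against control no member passed the FDR threshold, against 0.0152% of all genes, and 1, Iyd, had an unadjusted p under 0.05, against 2.65%. The Log2FC was positive for 16 and negative for 14 members, with a median of 0.02 (all genes 0.00). Both DMSO libraries lay below all 3 control libraries for 4 members, Pdzd2, Ndst4, Man1a and Bcl11b (15% of all genes), and above them for 4, Tdo2, Trpc6, Iyd and Neurod6 (15.7% of all genes). Pdzd2 was 18.8 and 22.1 CPM in DMSO against 29.6, 46.1 and 36.6 in control (Log2FC -0.88 ± 0.46) and Man1a 37.6 and 40.0 against 62.7, 57.5 and 56.7 (Log2FC -0.61 ± 0.43), both at an FDR of 1. These 2 passed when the control and DMSO libraries were fitted alone (1.11% of all genes did), and also without ONX-0914 replicate 1 (0.955%) or replicate 2 (1.07%). On the other side, Iyd had a Log2FC of 0.90 ± 0.37 and Tdo2 of 0.83 ± 0.60, from control levels under 5 CPM.

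ONX-0914 against DMSO used the same ONX-0914 libraries and is therefore no independent reading of them. No member passed the FDR threshold (0.0456% of all genes) or an FDR of 0.1 (0.297%), and 14 had an unadjusted p under 0.05 (14.7%). The Log2FC was negative for 22 members and positive for 8, with a median of -0.53 beside 0.05 over all genes, and field medians ran from -1.50 for pan-hippocampal genes to 0.08 for CA1. Left alone, replicate 1 gave 24 calls (17% of all genes) and replicate 2 gave 18 (46%), while DESeq2 called 6 members (1.81%) and the fit without the low-count filter 8 (1.11%).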

How the data were processed

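The authors prepared directional RNA-seq libraries of hippocampal RNA, sequenced them single-end and deposited whole-number read counts per Ensembl gene without normalization. The submitters' processing notes name Trimmomatic 0.39, STAR 2.7.3a, featureCounts 2.00 and build GRCm39. Summary lines of reads without a gene were left out (89.6% to 91.4% of reads were on genes). Symbols and exon lengths came from GENCODE M21 and matched 52083 identifiers with 99.8% of the counts. Groups follow the sample titles.

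The tests used edgeR 4.0.16 under R 4.3.3: filterByExpr over 3 groups, TMM (factors 0.965 to 1.10), glmQLFit and glmQLFTest with 1 mean per group over 7 libraries, and Benjamini–Hochberg adjustment over 13152 genes. The prior count was 0.125 for Log2FC and 2 for log2 CPM, SE came from the F statistic, and the common biological coefficient of variation was 0.249. The steps were tested on simulated counts. Depths of 2842675 to 13782270 reads leave genes of a few CPM with about 10 reads in the shallower libraries.

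Each member is named, and the value in every library is printed for those under an FDR of 0.1, those with both ONX-0914 libraries outside the other 5, and the defining genes of each field. Members and lists were chosen with earlier results of these data known. Alternatives were DESeq2 1.42.0, RLE size factors, total counts, no low-count filter, at least 10 counts per library, the compared groups alone, the earlier edgeR form, a prior count of 2, mitochondrial genes left out, a replicate block, each library left out, fields without 7 shared members, and means for medians.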

Additional observations from a re-analysis of the deposited data

How the results depend on the processing

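With 2 ONX-0914 libraries that differ from each other, the spread of that group sets most p-values, and totals near 2842675 reads leave Iyd, Tdo2, Coch and Map3k15 at a few reads in single libraries. Correlations between same-numbered libraries of their deviations from the group mean ran from -0.10 to 0.06. In a group of 2 libraries these deviations mirror each other, so the correlations cannot tell whether libraries were paired. With the replicate number as a block 0 members passed in each of the 3 comparisons. Of all 13152 genes, 1 passed with this block in ONX-0914 against control and 0 in DMSO against control and ONX-0914 against DMSO. With control replicate 1, 2 or 3 left out, 0 of all genes passed in each comparison.

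Members called in ONX-0914 against control numbered 0, but 8 with DESeq2, 10 without the low-count filter and 0 to 24 with each library left out, the highest without ONX-0914 replicate 2 and 19 without replicate 1. Against DMSO these were 6, 8 and 0 to 24, and in DMSO against control 2 with the compared groups alone and 0 to 2 with each library left out.

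Field medians of ONX-0914 against control, with each library left out, ran from -1.50 to -0.070 in dentate gyrus, -1.72 to 0.065 in CA1, -0.29 to 0.21 in CA2 and -2.82 to -0.74 in pan-hippocampal genes. Without shared members they were 0.25 in CA1, -0.075 in CA3 and -0.58 in CA2, and as means -0.14 in CA3 and 0.27 in CA2. The CA3 median was -0.36 with total counts and -0.94 with at least 10 counts per library. The CA2 median was 0.12 with at least 10 counts, 0.094 with the compared groups alone and -0.023 with the replicate block. In ONX-0914 against DMSO the left-out ranges were -1.43 to -0.27 in dentate gyrus, -1.42 to 0.56 in CA1, -1.06 to -0.50 in CA3, -0.72 to 0.20 in CA2 and -2.72 to -0.84 in pan-hippocampal genes. The CA3 median was -0.63 with total counts, -0.075 without shared members and -0.0076 as a mean, and the CA2 median -0.85 without shared members. In DMSO against control the replicate block gave -0.25 in dentate gyrus, -0.23 in CA1 and -0.38 in pan-hippocampal genes. CA1 was -0.11 as a mean, CA3 7.6e-05 and CA2 0.27 without shared members, and CA2 0.18 with at least 10 counts. The left-out ranges were -0.046 to 0.15 in CA1, 0.21 to 0.41 in CA2 and -0.097 to 0.0034 in pan-hippocampal genes.

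Relative to dentate gyrus within ONX-0914 replicate 1, leaving out shared members gave 0.032 for CA1, 1.28 for CA3, 0.35 for CA2 and -1.02 for pan-hippocampal genes, and means gave 0.094, 1.63, 1.52 and -1.06. In replicate 2 these were 1.05, 0.61 and -0.38 for CA1, CA3 and pan-hippocampal genes without shared members, and -0.049 for CA3 and 0.61 for CA2 as means. The cause was not tested.

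In the ONX-0914 comparisons the Log2FC changed sign for 3 of the 19 genes with values in every library. With each library left out it ran from -2.63 to 0.17 for Rgs14, -0.37 to 0.70 for Wfs1 and -0.12 to 0.24 for Amigo2 against control, and from -2.47 to 0.33, -0.51 to 0.56 and -0.29 to 0.069 against DMSO. Amigo2 against DMSO was 0.052 with total counts and 0.054 with the replicate block. The direction of the other 16 held in both ONX-0914 comparisons. In DMSO against control the sign changed with the setting or the library left out for 7 of the 19 (Neurod6 from -0.38 to 0.12).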
